A study of Mus musculus with 8 samples.

Results

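β-Catenin, the scaffolds and kinases of its destruction complex, and the casein kinase 1 genes were followed in muscle stem cells (MuSCs) of aged mice. These were 10 genes chosen by name, Ctnnb1, Apc, Axin1, Axin2, Gsk3a, Gsk3b, Csnk1a1, Csnk1d, Csnk1e and Btrc, out of 55487 genes in the count table. All 10 had counts, and 9 passed the filter on low counts that left 12060 genes for testing. The study asks whether nicotinamide (NAM, a form of vitamin B3) and pyridoxine (PN, a form of vitamin B6) stimulate MuSCs, and it examines CK1 and β-catenin as a route of NAM. MuSCs were sorted by FACS as lineage-, CD34+ and ITGA7+ cells from hindlimb muscle of old mice, which in this study were wild-type C57BL/6JRj males carrying no transgene. Culture in growth medium lasted 72 hours, either with NAM/PN at 1 mM or with 1% DMSO as vehicle, per the labels. For these libraries it was not stated whether 1 mM applies to each compound, or whether the NAM/PN medium also held DMSO, and the study's methods give a lower DMSO share and a longer culture for another assay of cultured mouse MuSCs. The labels give 4 pool numbers with 2 mice per pool, each number with 1 vehicle and 1 NAM/PN library, so that n = 4 per condition. Both libraries of a number were taken to come from the same pool, which makes 8 mice. RNA counts measure neither the amount nor the phosphorylation of these proteins.

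β-Catenin links cadherins to the cytoskeleton and, in the nucleus, acts as a coactivator of TCF/LEF transcription factors. In the absence of Wnt ligand, the scaffolds APC and AXIN hold β-catenin beside the kinases CK1α and GSK3. CK1α phosphorylates a priming serine, GSK3 then phosphorylates residues upstream of it, and the adaptor β-TrCP recognises the phosphorylated motif and delivers β-catenin to a ubiquitin ligase. In MuSCs, the pathway has been linked to activation and to the onset of differentiation, and the study describes the role of β-catenin in myogenesis as debated.

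The stretch of the Ctnnb1 coding sequence that these kinases act on is shown because most of the 10 genes encode proteins that assemble around it, phosphorylate it or read it. It covers codons 32 to 45 of the 781 codons of the transcript Ctnnb1-201 (GENCODE M21, GRCm38, plus strand of chromosome 9). The capitals mark the codons of the phosphorylated residues, which are codons 33, 37 and 41 for GSK3 and codon 45 for CK1α.

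Ctnnb1 codons: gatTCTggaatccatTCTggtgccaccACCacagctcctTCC

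Library totals lay between 6472484 and 10163101 counts. Levels are given as CPM, counts per 1000000 of the normalized library size, on which scale a count of 0 allows up to 0.2802 to 0.457 CPM (3 counts, for counting error only). In the chi-square per degree of freedom between libraries of one condition, pairs with vehicle 3 or NAM/PN 4 gave 68.0 to 87.4, and the other pairs gave 23.7 to 29.5. Vehicle 3 had 18.7% of its counts on the ribosomal RNA gene CT010467.1 against 5.22% to 11.6% in the other libraries, and NAM/PN 4 had the lowest value. The 8 MuSC markers were detected in every library and none was called, but all 8 log2 fold changes were below 0, with a median of -0.30 and 2 at an unadjusted p under 0.05, and they had summed levels of 2842 to 3297 CPM with vehicle and 2249.9 to 2849 CPM with NAM/PN. Of 8 genes of differentiating myoblasts, 7 were called lower with NAM/PN (edgeR), and their summed level was 1323 to 2710 CPM with vehicle and 206 to 571 CPM with NAM/PN. In bulk RNA, fewer differentiating cells and less of their RNA per cell cannot be told apart. Among markers of other cells, 3 of 6 mural genes were tested and 1 (Acta2) was called lower, and Myh11 had no count. The summed mural level of 285 to 608 CPM with vehicle and 95.9 to 156 CPM with NAM/PN was mostly Acta2, which was at 244 to 534 CPM and 46.9 to 122 CPM, while Notch3 and Cspg4 had log2 fold changes of -0.50 and -0.53 and were not called. Of 8 fibro-adipogenic genes, Col3a1 was called lower and Pdgfra, Lum and Dpt had no count, while Col1a1 was at 486 and 1032 CPM in NAM/PN 1 and 2 and at 1.74 to 41.3 CPM elsewhere. Endothelial, immune and Schwann genes summed to at most 29.5, 7.58 and 12.6 CPM in any library, and no Ptprc or Csf1r count was found. The part of these cell types in the results below was not tested.

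None of the 9 tested genes was called by edgeR (quasi-likelihood test, adjusted p under 0.05 by Benjamini-Hochberg over every tested gene), against a background of 1.28% of all tested genes (0.282% higher and 0.995% lower with NAM/PN). With the pool of mice as a replicate block, again 0 of 9 were called, where the background was 1.29%. At an unadjusted p under 0.05, 0 of the 9 passed in the fit without the block, with the block, with DESeq2 and with voom, and the background in the fit without the block was 9.28%. The CPM ranges of both conditions overlapped for all 9, whereas they did not overlap for 7.21% of all tested genes. Log2 fold changes lay between -0.42 and 0.22, with a median of -0.074 beside -0.0022 for all tested genes, and 4 of 9 were above 0. Together the 10 genes took 0.146% to 0.204% of all counts in the vehicle libraries and 0.174% to 0.188% in the NAM/PN libraries.

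**Figure D1:**
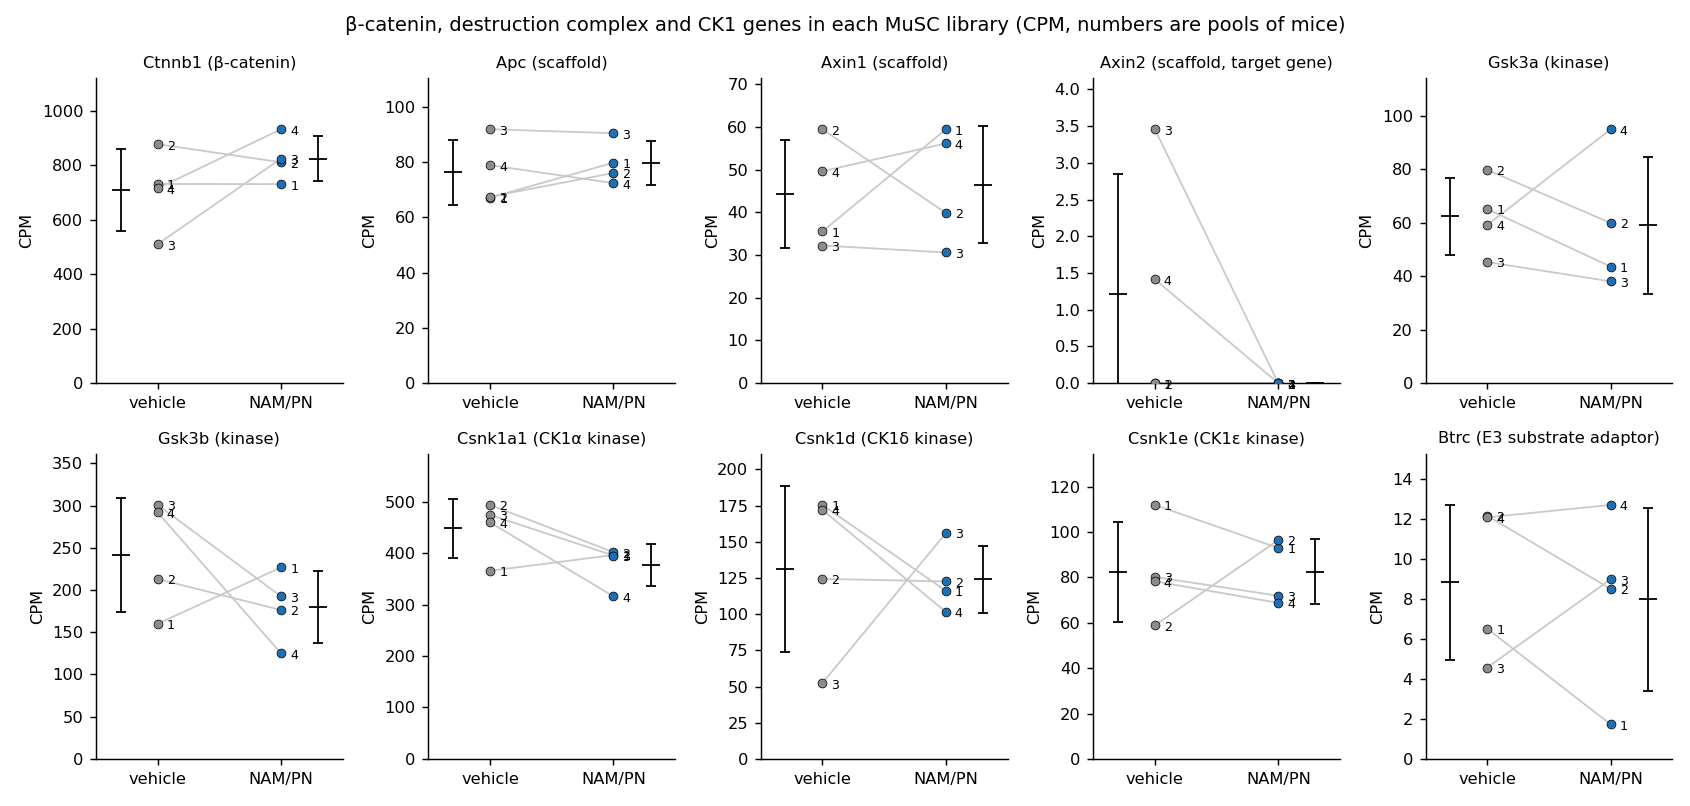
CPM of the 10 genes in each library, vehicle in grey and NAM/PN in blue, with grey lines joining libraries of the same pool (numbers 1 to 4) and black bars for the mean and SD of 4 libraries, cut at 0 for Axin2. The conditions overlap in every panel, vehicle 3 is the lowest library for Ctnnb1 and Csnk1d, and the 4 NAM/PN libraries of Axin2 are at 0.

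The RNA of β-catenin itself did not pass the test. Ctnnb1 (ENSMUSG00000006932, GRCm38 chr9:120929216-120960507) was at 732, 878, 511 and 716 CPM in vehicle pools 1 to 4 and at 731, 812, 825 and 933 CPM in the NAM/PN libraries of the same pools. Vehicle 3 was the lowest and NAM/PN 4 the highest of the 8 libraries, pools 1 and 2 differed little, and the conditions overlapped. The means were 709 ± 151 CPM and 825 ± 82.9 CPM (SD, n = 4), and the log2 fold change was 0.22 ± 0.17 (SE), a 1.16-fold ratio with a 95% interval from 0.913-fold to 1.48-fold (edgeR, adjusted p = 0.81). Within pools the log2 ratios were -0.0013, -0.11, 0.69 and 0.38, so that the pooled difference came from pools 3 and 4. Without vehicle 3 and NAM/PN 4, the libraries that stood apart above, the log2 fold change was 0.018 (adjusted p = 0.99, range over all alternatives 0.59 to 0.99). It was 0.085 without vehicle 3 alone and 0.34 without vehicle 2. The 3′ end of Ctnnb1 lies within the span of Ulk4 on the other strand, which had between 0 and 32 counts in a library, where Ctnnb1 had 4136 to 9990.

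The scaffolds bring β-catenin and its kinases together. Apc (ENSMUSG00000005871, chr18:34220924-34322552), which binds β-catenin and AXIN, was at 67.1, 67.5, 91.9 and 78.9 CPM with vehicle and 79.8, 76.1, 90.5 and 72.4 CPM with NAM/PN in pools 1 to 4. Both conditions covered nearly the same range, and the higher values of pool 3 appeared in both of its libraries. Apc had a log2 fold change of 0.061 ± 0.20 (SE, adjusted p = 0.99), with a 95% interval from -0.36 to 0.48. Axin1 (ENSMUSG00000024182, chr17:26138688-26195811), the constitutive AXIN scaffold, was at 35.5, 59.4, 32.2 and 49.6 CPM with vehicle and 59.5, 39.8, 30.6 and 56.1 CPM with NAM/PN. Pools 1 and 2 differed in opposite directions, by 0.74 and -0.58 on the log2 scale. Its log2 fold change was 0.075 ± 0.29 (SE, adjusted p = 0.99), and the value was -0.075 with voom.

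Axin2 (ENSMUSG00000000142, chr11:108920349-108950783) encodes the second AXIN scaffold and is a widely used transcriptional target of β-catenin that feeds back on the pathway. It had 28 counts in vehicle 3 and 13 in vehicle 4, which are 3.46 and 1.41 CPM, and 0 counts in the other 6 libraries, including all 4 NAM/PN libraries. The vehicle libraries of pools 1 and 2 thus had no count, like the NAM/PN libraries, and levels cannot be compared among libraries at 0 counts. The gene did not pass the filter, and without the filter its adjusted p was 0.37 over 19244 genes (edgeR).

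GSK3 phosphorylates β-catenin after priming and is encoded by a pair of genes. Gsk3a (ENSMUSG00000057177, chr7:25228258-25237851) was at 65.1, 79.8, 45.3 and 59.2 CPM with vehicle and 43.6, 59.9, 38.1 and 94.99 CPM with NAM/PN in pools 1 to 4. It was lower with NAM/PN in pools 1 to 3 and higher in pool 4, where NAM/PN 4 was the highest of all libraries. Its log2 fold change was -0.074 ± 0.28 (SE, adjusted p = 0.99) and moved to -0.54 (adjusted p = 0.42, range over all alternatives 0.42 to 0.999) without vehicle 3 and NAM/PN 4. Its span holds the antisense gene 9130221H12Rik, with 0 to 124 counts in a library beside 250 to 1017 of Gsk3a, and the strand setting of the counting was not given in the sources used here.

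Gsk3b (ENSMUSG00000022812, chr16:38089001-38246084) had the smallest p-value of the 9 genes. It was at 160.1, 213, 301 and 292 CPM with vehicle and at 227, 176, 192 and 125 CPM with NAM/PN. Vehicle 3 and 4 were above every other library, NAM/PN 4 was the lowest, and vehicle 1 was below 3 of the 4 NAM/PN libraries. The means were 241 ± 67.0 CPM and 180.1 ± 42.4 CPM (SD, n = 4), a ratio of 0.746 with a 95% interval from 0.542 to 1.03 (log2 fold change -0.42 ± 0.22 SE, unadjusted p = 0.069, adjusted p = 0.61). Within pools the log2 ratios were 0.50, -0.27, -0.64 and -1.22. Without the filter on low counts its unadjusted p was 0.023, the one fit on all 8 libraries with a value under 0.05. The log2 fold change was -0.71 without pool 1 (adjusted p = 0.32) and -0.17 without vehicle 3 and NAM/PN 4 (adjusted p = 0.87), and adjusted p ranged from 0.32 to 0.95 over the alternatives.

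CK1α, encoded by Csnk1a1, is the priming kinase of β-catenin. Csnk1a1 (ENSMUSG00000024576, chr18:61555274-61590061) was at 366, 494, 474 and 460 CPM with vehicle and at 396, 402, 395 and 316 CPM with NAM/PN. Vehicle 2, 3 and 4 were above every NAM/PN library and vehicle 1 was below 3 of them, so the conditions overlapped through vehicle 1. NAM/PN 1, 2 and 3 lay within 395 to 402 CPM, and NAM/PN 4 stood apart below them. The means were 448 ± 56.8 CPM and 377 ± 41.1 CPM (SD, n = 4), a ratio of 0.842 with a 95% interval from 0.667 to 1.06 (log2 fold change -0.25 ± 0.16 SE, adjusted p = 0.75). The log2 fold change was below 0 in each of 21 alternatives, from -0.36 to -0.15, with adjusted p between 0.49 and 0.98.

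CK1δ and CK1ε are close relatives of CK1α that also act in Wnt signalling, on Dishevelled among other proteins, and in the circadian clock. Csnk1d (ENSMUSG00000025162, chr11:120961749-120991330) was at 175, 124, 52.4 and 172 CPM with vehicle and at 116, 123, 156 and 102 CPM with NAM/PN. Vehicle 3 was far below the other libraries, and pool 3 was the one pool with more Csnk1d under NAM/PN. Its log2 fold change was -0.080 ± 0.28 (SE, adjusted p = 0.99), and it was 0.019 with the replicate block and -0.48 without pool 3 (adjusted p = 0.43, range 0.43 to 1.00). Csnk1e (ENSMUSG00000022433, chr15:79417856-79455566) was at 112, 58.8, 80.2 and 78.2 CPM with vehicle and at 92.9, 96.4, 71.9 and 68.7 CPM with NAM/PN. The highest and the lowest library were both vehicle libraries, and the log2 fold change was 0.0034 ± 0.23 (SE, adjusted p = 0.999), with its sign turning to -0.0094 without the filter on low counts.

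β-TrCP, the adaptor that reads phosphorylated β-catenin, is encoded by Btrc and its paralogue Fbxw11. Btrc (ENSMUSG00000025217, chr19:45363734-45530013) had between 14 and 136 counts in a library, the fewest of the tested genes. It was at 6.51, 12.2, 4.57 and 12.1 CPM with vehicle and at 1.72, 8.499, 8.98 and 12.7 CPM with NAM/PN, so that NAM/PN 1 was the lowest library and pools went in both directions. Its log2 fold change of -0.15 had a 95% interval from -1.65 to 1.36 (adjusted p = 0.99), the widest of the group, which runs from 0.319-fold to 2.56-fold, so that a difference within it was not detectable beyond the spread between libraries. Fbxw11 was at 51.0 to 62.1 CPM with vehicle and 39.3 to 80.9 CPM with NAM/PN, with a log2 fold change of 0.052 (adjusted p = 0.99).

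**Figure D2:**
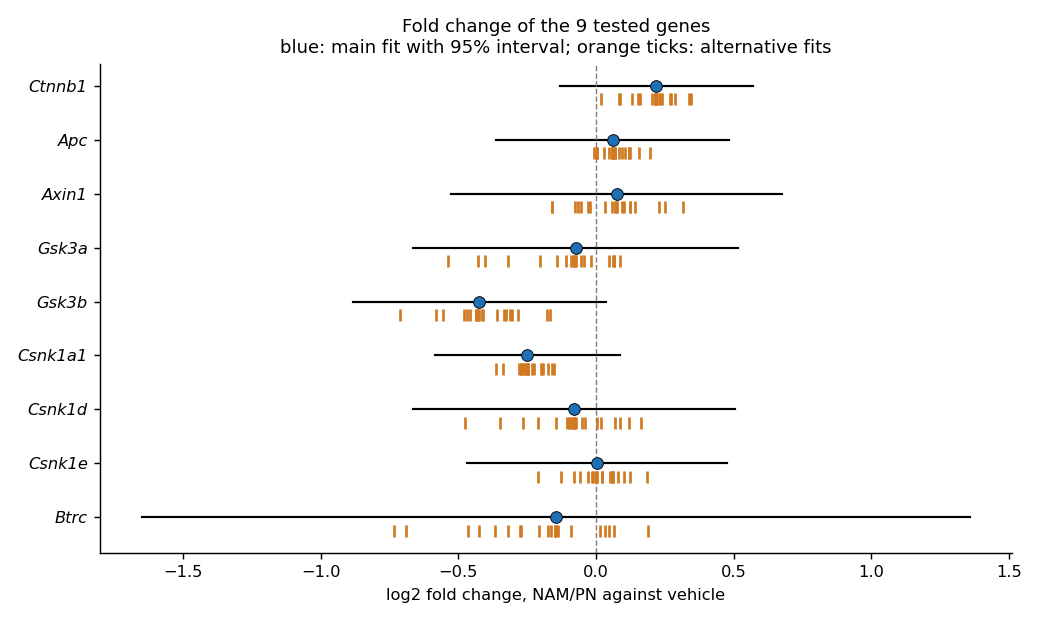
Log2 fold change of the 9 tested genes (horizontal axis, NAM/PN against vehicle), with the edgeR estimate in blue, its 95% interval as a black line and each of 21 alternative fits as an orange tick. All intervals include 0, and Ctnnb1, Gsk3b and Csnk1a1 keep their sign in all of the ticks.

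The pools did not move together. Of the 9 tested genes, none was higher or lower with NAM/PN in all 4 pools: Gsk3a, Gsk3b, Csnk1a1, Csnk1d and Csnk1e were lower in 3 of 4 pools, and the other 4 genes were higher in 2 of 4. The biological coefficient of variation, the spread between libraries after counting error, was between 0.182 for Csnk1a1 and 0.296 for Axin1 in 8 of the 9 genes and 0.691 for Btrc. The median over all tested genes was 0.391, which is not matched for expression level. Vehicle 3 and NAM/PN 4 held the extreme values of several genes, as given above. In the fit without both, 0 of 9 genes were called, as with all 8 libraries, and Gsk3a had an unadjusted p of 0.045 (edgeR, adjusted p = 0.42).

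**Figure D3:**
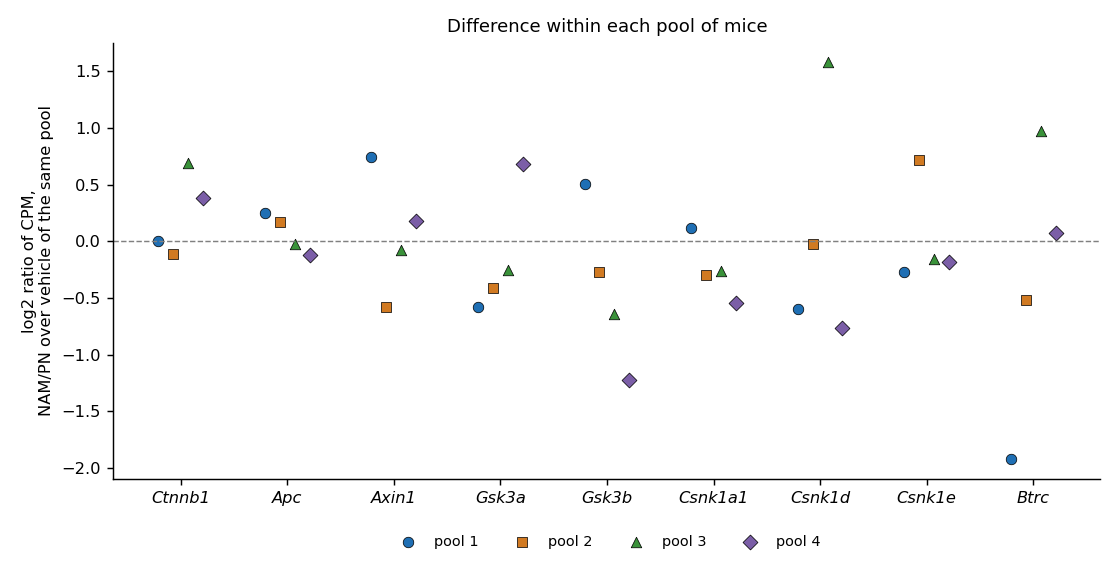
Log2 ratio of CPM, NAM/PN over vehicle of the same pool (vertical axis), for the 9 tested genes, with one symbol per pool. Each gene has pools on both sides of 0, and the widest span is that of Btrc, from -1.92 to 0.98.

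Shares within a family of paralogues do not depend on library size. They are shares of 3′ counts and not of molecules, since each gene's 3′ end may be captured differently. Csnk1a1 made up 56.0%, 72.9%, 78.2% and 64.8% of the summed counts of Csnk1a1, Csnk1d and Csnk1e with vehicle and 65.5%, 64.7%, 63.4% and 65.0% with NAM/PN. The NAM/PN libraries spanned 63.4% to 65.5% and lay inside the range of the vehicle libraries, with means of 64.7% ± 0.871 and 68.0% ± 9.70 (SD, n = 4). The difference of -3.31 percentage points was smaller than the vehicle SD (exact permutation p = 0.51, two-sided). It was 0.0933 percentage points without vehicle 3, -1.65 without vehicle 2 and -7.29 without vehicle 1. Gsk3b made up 78.5% ± 7.75 of the Gsk3a and Gsk3b counts with vehicle and 74.7% ± 12.7 with NAM/PN (exact p = 0.71), with NAM/PN 4 the lowest at 56.8%. The difference of -3.77 percentage points turned to 2.20 without NAM/PN 4 and was -0.955 without vehicle 3, -2.21 without vehicle 4 and -5.67 to -6.82 without vehicle 1 or 2 or NAM/PN 1 or 3. Across the 6 shares examined the exact p-values were 0.43 to 0.86, all 0.86 after Benjamini-Hochberg adjustment, where the smallest p that the 70 assignments allow is 0.029. The sign-flip test within pools gave 0.50 to 0.88 in a paired reading, and cannot go below 0.125.

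**Figure D4:**
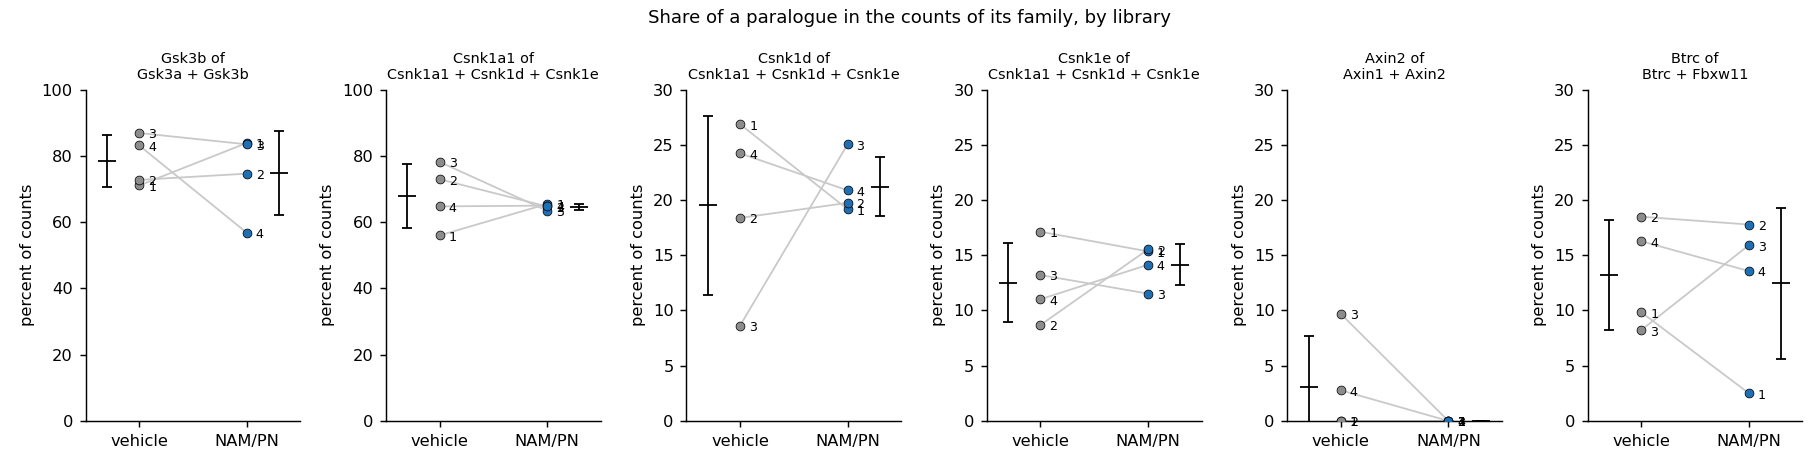
Counts of one paralogue as a percentage of its family's counts in each library, vehicle in grey and NAM/PN in blue, lines joining pools 1 to 4, black bars mean and SD (cut at 0 for Axin2); the 2 left panels run to 100% and the others to 30%. The Csnk1a1 share spans 56.0% to 78.2% with vehicle and 63.4% to 65.5% with NAM/PN.

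Around these 10 genes, 159 other genes of the pathway were listed by role, of which 31 had no count and 107 were tested. The lists were written with earlier results of these data known, so their shares are no independent comparison with all tested genes. Of the 107, 3 passed the test, all lower with NAM/PN, where 1.28% of all tested genes were called and 0.995% were called lower. The median log2 fold change of the 107 was 0.050, beside -0.0022 for all tested genes, of which 49.8% were above 0. At an unadjusted p under 0.05 there were 18 of the 107, beside 9.28% of all tested genes, and the conditions did not overlap for 10 of them, beside 7.21%. The genes that fell were Mmp14 and Fst among the target genes and Cdh11 among the cadherin junction genes.

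Mmp14, a membrane-bound matrix metalloproteinase, was at 52.5, 65.1, 65.6 and 78.8 CPM with vehicle and at 23.3, 23.1, 24.5 and 11.9 CPM with NAM/PN. All NAM/PN libraries were below all vehicle libraries, and the log2 fold change was -1.67 ± 0.29 (SE, adjusted p = 0.0036; 0.0084 with the replicate block). Fst encodes follistatin, a secreted antagonist of activins and myostatin. It was at 23.7, 51.2, 24.6 and 44.8 CPM with vehicle and at 7.88, 0.418, 6.09 and 2.80 CPM with NAM/PN, again without overlap, and fell by 3.07 on the log2 scale (SE 0.59, adjusted p = 0.0089). Its call was lost without vehicle 2 (log2 fold change -2.85, adjusted p = 0.073) or vehicle 4 (-2.95, adjusted p = 0.060). Adjusted p ranged from 6.3e-05 to 0.073 over 11 alternative fits.

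Cdh11 encodes a cadherin whose cytoplasmic tail binds β-catenin. It was at 26.9, 28.7, 41.4 and 19.6 CPM with vehicle, at 1.72 and 2.93 CPM in NAM/PN 1 and 2, and without a count in NAM/PN 3 and 4. Its log2 fold change was -4.65 ± 0.87 (SE, adjusted p = 0.0067). The other 8 tested genes of the junction list were not called, with log2 fold changes from -0.61 to 1.53. The genes of differentiating myoblasts fell in the same libraries as these 3 genes, and their part in these falls was not tested.

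Among the remaining target genes, none of those fixed for description was called. Ccnd1, which encodes cyclin D1, was at 1451 to 2240 CPM with vehicle and 1628 to 2004 CPM with NAM/PN, with a log2 fold change of -0.022 ± 0.15 (SE, adjusted p = 0.99). Myc was at 20.5 to 46.2 CPM and 23.6 to 45.1 CPM, with a log2 fold change of 0.082 (adjusted p = 0.99). Lef1, both a target and a partner of β-catenin, had a log2 fold change of -0.32 (adjusted p = 0.98) at 2.29 to 12.2 CPM with vehicle. Nkd1, a feedback inhibitor, had counts in 3 of 8 libraries and was not tested. Of the 34 target genes, 23 were tested, 0 rose and 2 fell, beside 0.282% higher and 0.995% lower over all tested genes, and 13 of the 23 log2 fold changes were above 0, beside 49.8% of all tested genes. At an unadjusted p under 0.05 there were 9 of the 23, of which 5 were higher and 4 lower with NAM/PN, where the share of all tested genes was 9.28%. The conditions did not overlap for 5 of the 23, beside 7.21% of all tested genes, and these were Mmp14, Fst, Birc5, Vegfa and Apcdd1, the last 3 named after their values were seen. Because the list was written with earlier results of these data known, an excess of changed target genes cannot be read from these shares.

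Birc5, which encodes the mitotic protein survivin, was at 421, 471, 342 and 436 CPM with vehicle and at 486, 528, 564 and 681 CPM with NAM/PN. All NAM/PN libraries were above all vehicle libraries, and the log2 fold change of 0.43 ± 0.16 (SE) was not called (adjusted p = 0.32, range over 11 alternative fits 0.12 to 0.53) and was 0.24 without vehicle 3 and NAM/PN 4. Vegfa, which encodes an angiogenic growth factor, was at 52.6 to 66.1 CPM with vehicle and 34.1 to 49.98 CPM with NAM/PN, with a log2 fold change of -0.42 ± 0.24 (SE, adjusted p = 0.66). Apcdd1, which encodes a membrane-bound Wnt inhibitor, was at 3.55, 0.372, 0 and 0 CPM with vehicle and at 4.43, 6.69, 16.3 and 7.75 CPM with NAM/PN (adjusted p = 0.48, from 0.12 to 0.73 over 11 alternative fits). Its vehicle 1 library lay close to the lowest NAM/PN library.

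Upstream of the complex, the ligand, receptor, inhibitor and transducer lists held no called gene, where the share of all tested genes was 1.28%. Of 25 ligand and secretion genes, 13 had no count and 8 were tested. Wnt9a, a secreted Wnt ligand, was at 21.2, 36.4, 27.3 and 26.0 CPM with vehicle and at 7.02, 6.13, 3.96 and 15.5 CPM with NAM/PN. The conditions did not overlap, but the log2 fold change of -1.75 ± 0.46 (SE) missed the threshold (adjusted p = 0.070). It passed in 3 of 11 alternative fits, among them DESeq2 (adjusted p = 0.019) and the edgeR fit without NAM/PN 4 (adjusted p = 0.011). Adjusted p ranged from 0.011 to 0.31 over the 11 fits. Wnt7b, another ligand, was at 11.9 to 17.8 CPM with vehicle and 26.2 to 43.3 CPM with NAM/PN, also without overlap, with a log2 fold change of 1.15 ± 0.34 (SE, adjusted p = 0.14).

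Of 20 receptor and turnover genes, 15 were tested. The smallest p-values were those of Lgr6, a receptor for R-spondins (log2 fold change -1.45 ± 0.54 SE, adjusted p = 0.32), and Znrf3, a ubiquitin ligase that removes Frizzled receptors and is also a target gene (-0.998 ± 0.38 SE, adjusted p = 0.34). Of 15 secreted inhibitors and their receptors, 10 had no count and 2 were tested. These were Kremen1, a receptor for Dickkopf proteins (log2 fold change -0.25, adjusted p = 0.88), and Sfrp2, a secreted Frizzled-related protein (-0.47, adjusted p = 0.99). Kremen1 was at -0.099 without NAM/PN 2 and -0.48 without NAM/PN 3, and Sfrp2 was at -1.59 with the replicate block (adjusted p = 0.98), -1.47 without NAM/PN 2 and 0.17 without vehicle 4. Among 11 transducers, 6 were tested, and the smallest p-values were those of Dvl2, a Dishevelled gene (0.24, adjusted p = 0.88), and Ccdc88c, which encodes a Dishevelled-binding protein (-0.37, adjusted p = 0.91). Leaving out single libraries moved Dvl2 between 0.11 (without vehicle 3) and 0.40 (without vehicle 4), and Ccdc88c between -0.16 (without vehicle 2) and -0.71 (without NAM/PN 4).

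Beside the complex itself, 0 of 6 other casein kinase genes and 0 of 20 tested partners were called, where the share of all tested genes was 1.28%. Csnk1g1 and Csnk1g2, which encode membrane-bound CK1γ kinases, had log2 fold changes of -0.62 ± 0.34 and 0.39 ± 0.26 (SE, adjusted p = 0.65 and 0.75). Without NAM/PN 1 the value of Csnk1g1 was -1.06 (edgeR, adjusted p = 0.22, range over 11 alternative fits 0.22 to 0.92), and without NAM/PN 4 it was -0.41. Csnk1g2 was at 0.16 without NAM/PN 4, 0.24 without vehicle 3, 0.59 without NAM/PN 3 and 0.0063 without vehicle 3 and NAM/PN 4 (adjusted p from 0.37 to 0.997 over 11 alternative fits). Siah1b, an E3 ubiquitin ligase gene, was at 61.9 to 83.5 CPM with vehicle and 84.1 to 110.5 CPM with NAM/PN, without overlap and above vehicle in 4 of 4 pools, and its log2 fold change of 0.47 ± 0.20 (SE) was not called (adjusted p = 0.45). Skp1, a core subunit of the ubiquitin ligase that β-TrCP serves, had a log2 fold change of 0.43 ± 0.20 (SE, adjusted p = 0.50). The median log2 fold change of the 20 partners was 0.053, and 15 of the 20 were above 0, beside 49.8% of all tested genes.

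Of the 21 nuclear partners, all were tested and 0 were called, where the share of all tested genes was 1.28%. Their median log2 fold change was -0.14. Ctnnbip1, which encodes an inhibitor of the β-catenin and TCF interaction, was at 128 to 218 CPM with vehicle and 195 to 321 CPM with NAM/PN (log2 fold change 0.52 ± 0.20 SE, adjusted p = 0.34). Pygo2, a nuclear cofactor of β-catenin, had a log2 fold change of 0.39 ± 0.20 (SE, adjusted p = 0.61), which was 0.22 without NAM/PN 4 and 0.17 without vehicle 3 and NAM/PN 4. Crebbp, which encodes the coactivator CBP, was at 127, 195, 360.0 and 154 CPM with vehicle and at 203, 163, 198 and 124 CPM with NAM/PN, so that vehicle 3 alone stood above the rest. Its log2 fold change was -0.28 ± 0.26 (SE, adjusted p = 0.87) and turned to 0.11 without vehicle 3. Ep300, which encodes the related coactivator p300, had a log2 fold change of -0.15 ± 0.27 (SE, adjusted p = 0.96), which turned to 0.075 without vehicle 3.

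**Figure D5:**
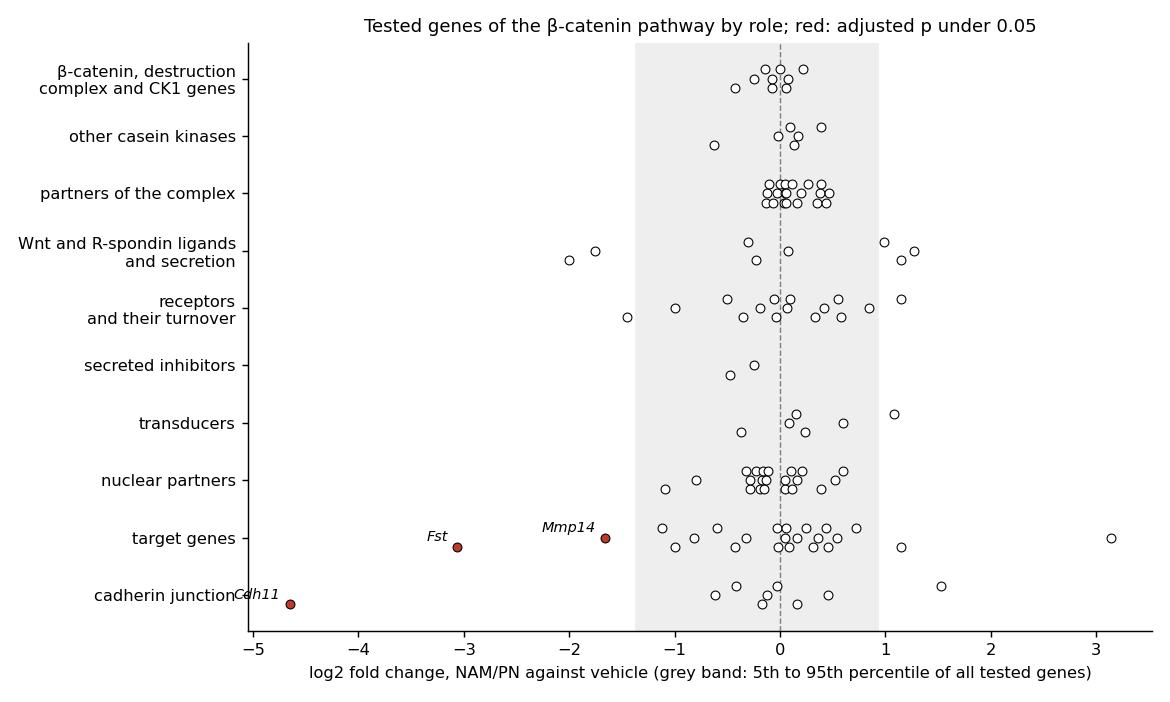
Log2 fold change (NAM/PN against vehicle, horizontal axis) of every tested gene by role, one point per gene, red where the adjusted p was under 0.05 and white otherwise, over the 5th to 95th percentile of all 12060 tested genes in grey. The 9 tested genes of the complex lie between -0.42 and 0.22, and the 3 red points are Mmp14, Fst and Cdh11.

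Among 9211 other tested genes whose log2 CPM averaged at least 3, those whose log2 CPM followed Ctnnb1 most closely over the 8 libraries were Tst (Pearson r = 0.97), Prr13 (0.97) and Hdac5 (0.96). For Csnk1a1 they were Spag9 (0.99), Cacnb1 (0.96) and Pla2g16 (0.96). These are the highest values of a search over 9211 genes in 8 libraries that share pools, and none of the 6 genes was called.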

How the data were processed

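RNA of 8 MuSC libraries was measured with a QuantSeq 3′ FWD kit, so that reads come from transcript 3′ ends. The deposited values are raw counts per gene, which the authors neither normalized nor filtered. Per their methods, reads were demultiplexed with Bcl2FastQ, aligned to GRCm38 with RNASTAR and counted with htseq-count (version 2.16.2 in the submitters' processing notes). The annotation release, the strand setting and the handling of multimapping reads were not given in the sources used here.

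Software versions were edgeR 4.0.16, DESeq2 1.42.0 and limma 3.58.1 under R 4.3.3, with matplotlib 3.10.9 under Python 3.11.15 for the plots. Low counts were removed by filterByExpr (minimum count 10, minimum total 15), and libraries were normalized by TMM before testing with glmQLFit and glmQLFTest, two-sided, with Benjamini-Hochberg adjustment over 12060 genes and a threshold of 0.05. This follows the study's fit for mouse muscle, which has no block. CPM are counts per 1000000 of the normalized library size. Log2 CPM used a prior count of 2. Paralogue shares were compared by exact permutation over 70 assignments. Depth was 6472484 to 10163101 counts per library.

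Libraries were grouped by their labels. The pool number was taken to pair the conditions, since the titles of both libraries of a number name the same pool. The titles do not say that the mice were the same. Deviations from the condition means correlated by -0.033 to 0.031 within pools. No pair of libraries within a condition differed by as little as counting error. Gene names and positions came from GENCODE M21, by symbol, with Skp1 and Tle5 under older names; it held 55227 of the 55487 identifiers. The members and lists were chosen with earlier results of these data known. Named genes were the 10 members, every called gene of a list or else the 2 with the smallest p-values, 7 fixed genes (Crebbp, Ep300, Lef1, Nkd1, Ccnd1, Myc and Fbxw11) and the 3 genes most like Ctnnb1 and Csnk1a1; target genes whose conditions did not overlap were added after seeing the data. Fits were tested on simulated data. Alternatives were DESeq2, RLE factors, library totals, no filter, the replicate block, a robust fit, voomWithQualityWeights with duplicateCorrelation, thinned counts, a threshold of 0.10, and leaving out each library and pool. Leaving out vehicle 3 and NAM/PN 4 together was added after seeing the data. Named genes of the other lists had 11 alternative fits each. These were DESeq2, the replicate block, leaving out each library, and leaving out vehicle 3 and NAM/PN 4 together.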

Additional observations from a re-analysis of the deposited data

Results flagged for a closer look

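In the NAM/PN group, Csnk1a1 was at 316 CPM in NAM/PN 4, where the other 3 libraries were at 395 to 402 CPM, so that this library was far from the others relative to the range of its group. Mmp14 was at 11.9 CPM in NAM/PN 4, where the other 3 libraries were at 23.1 to 24.5 CPM. In the vehicle group, Apcdd1 was at 3.55 CPM in vehicle 1, where the other 3 libraries were at 0 to 0.372 CPM. These 3 were found among 84 groups of 4 libraries examined, in which chance marks about 1 group in 20, or 4.2. Without NAM/PN 4 the log2 fold change was -0.17 for Csnk1a1 and -1.47 for Mmp14, and without vehicle 1 the adjusted p of Apcdd1 was 0.12 (edgeR, range over 11 alternative fits 0.12 to 0.73).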

How the results depend on the processing

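In none of 21 alternative fits, nor at an adjusted p of 0.10, was any of the 9 tested genes called, and their smallest adjusted p in any fit was 0.32 (Gsk3b without pool 1). Ctnnb1, Gsk3b and Csnk1a1 kept their sign in all 21 fits, and 31 of the 189 fits of single genes turned a sign. The sign turned to -0.0094 for Csnk1e without a filter, to 0.019 for Csnk1d with the replicate block and to -0.075 for Axin1 with voom. Leaving out libraries gave log2 fold changes from -0.0057 to 0.20 for Apc (turned without NAM/PN 3), -0.16 to 0.32 for Axin1 (without vehicle 1 or 3, NAM/PN 1 or 4, or pool 1), -0.54 to 0.087 for Gsk3a (without vehicle 2, NAM/PN 1 or 3, or pool 1 or 2), -0.48 to 0.16 for Csnk1d (without vehicle 1 or 4, NAM/PN 4, or pool 1 or 4), -0.21 to 0.19 for Csnk1e (without vehicle 2, 3 or 4, NAM/PN 1 or 2, or pool 2) and -0.69 to 0.19 for Btrc (without vehicle 2 or 4, NAM/PN 1, or pool 1 or 2). Among other named genes it gave -1.47 to 0.17 for Sfrp2 (without vehicle 4), -0.46 to 0.24 for Crebbp and -0.34 to 0.23 for Ep300 (both without vehicle 3), -0.67 to 0.35 for Lef1 (without NAM/PN 4), -0.12 to 0.13 for Ccnd1 (without vehicle 1 or 3, or NAM/PN 2 or 4), -0.10 to 0.27 for Myc (without NAM/PN 2 or vehicle 4) and -0.20 to 0.20 for Fbxw11 (without NAM/PN 1 or 4). The number of genes called among all tested was 154 in the main comparison, 289 with DESeq2, 366 without a filter, 232 with voom and 244 at an adjusted p of 0.10. It ranged from 42 to 236 when libraries were left out, with 92 without NAM/PN 1, 80 without vehicle 2, 87 without vehicle 4, 65, 42 and 94 without pool 1, 2 and 4, and 236 without vehicle 3 and NAM/PN 4 together. The cause of these shifts was not tested. With the replicate block 156 genes were called, 130 of them shared with the main comparison, and the block changed no call among the 10 genes and the named genes. Library totals in place of TMM put the median log2 fold change of all tested genes at 0.055 and turned no sign of the 9 genes. Leaving out libraries gave share differences, in percentage points, from -9.29 to 5.01 for Gsk3b (turned without NAM/PN 4, pool 4, or vehicle 3 and NAM/PN 4), -7.57 to 0.50 for Csnk1a1 (without vehicle 3 or pool 3), -3.23 to 4.81 for Csnk1d (without vehicle 3, pool 3, or vehicle 3 and NAM/PN 4), -0.11 to 3.17 for Csnk1e (without pool 2), -4.15 to -0.924 for Axin2 (no turn) and -3.58 to 2.55 for Btrc (without vehicle 2 or 4, NAM/PN 1, or pool 1). These shifts were smaller than the SD pooled over both conditions. Axin2 had at most 28 counts in a library, with 0, 0, 28 and 13 counts in vehicle 1 to 4. Btrc varied between libraries beyond counting error (coefficient of variation 0.691).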
